A study of Mus musculus with 4 samples.

Results

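Ankrd1, Ankrd2 and Ankrd23 form the family of muscle ankyrin repeat proteins, and their transcripts are described here in the right ventricle of Ezh2-deficient adult mice and of wild-type mice. The members are the 3 rows of the deposited read table, out of 29595, whose gene name equals one of these symbols. RNA was sequenced from 4 right ventricles of adult animals on a mixed C57BL/6 background, 2 labelled as Ezh2-deficient mutants and 2 as wild type, and the libraries are called mutant 1, mutant 3, wild type 1 and wild type 2 after the labels. Ezh2 encodes the histone methyltransferase of the Polycomb repressive complex PRC2, which marks repressed genes. The sources used here do not give the Ezh2 allele, the driver of its deletion, the cells that lost it or the animals' exact age. The genes were chosen with the read counts of the mutants against the wild types known, so their differences between the groups are given as a description, with no test.

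The 3 proteins share a coiled-coil stretch and a run of ankyrin repeats, bind the N2A region of titin in the I-band of the sarcomere, and can also be found in the nucleus, where they act as transcriptional cofactors. Ankrd1, also called cardiac ankyrin repeat protein, is the family member of heart muscle and rises with stretch, pressure load and injury. Ankrd2 is best known from slow skeletal muscle fibres, where stretch and denervation change its level. Ankrd23, also called diabetes-related ankyrin repeat protein, is made in heart and skeletal muscle and was described in muscle of diabetic animals.

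The promoters are shown because they differ in which of 4 short motifs they hold. Each sequence is the 250 bases before the RefSeq start of the gene, 5′ to 3′ on the strand of the gene, on build GRCm38.p6. The windows are chr19:36119845-36120094 on the minus strand for Ankrd1, chr19:42035777-42036026 on the plus strand for Ankrd2, and chr1:36535740-36535989 on the minus strand for Ankrd23. Capitals mark matches on either strand to CATTCC (the core of the M-CAT element that TEAD factors bind) and to AGATAA, known as the site of GATA factors. They also mark CANNTG, the E-box of basic helix-loop-helix factors, and TATAAA, known as the TATA box.
Ankrd1: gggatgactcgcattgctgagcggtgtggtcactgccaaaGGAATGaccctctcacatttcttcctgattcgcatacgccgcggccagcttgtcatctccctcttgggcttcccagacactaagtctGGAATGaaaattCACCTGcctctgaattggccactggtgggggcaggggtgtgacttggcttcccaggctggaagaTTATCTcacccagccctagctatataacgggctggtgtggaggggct
Ankrd2: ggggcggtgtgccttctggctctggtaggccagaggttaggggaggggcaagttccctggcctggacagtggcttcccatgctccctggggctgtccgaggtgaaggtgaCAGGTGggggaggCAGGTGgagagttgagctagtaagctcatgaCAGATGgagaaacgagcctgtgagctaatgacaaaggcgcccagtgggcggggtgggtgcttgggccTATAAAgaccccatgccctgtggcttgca
Ankrd23: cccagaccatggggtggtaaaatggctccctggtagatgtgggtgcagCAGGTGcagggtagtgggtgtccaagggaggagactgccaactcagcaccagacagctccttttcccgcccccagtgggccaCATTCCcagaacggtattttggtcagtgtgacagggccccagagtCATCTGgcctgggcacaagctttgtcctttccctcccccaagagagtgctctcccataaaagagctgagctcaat

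The Ankrd1 window held 2 M-CAT cores, beginning 210 and 123 bases before the start, 1 GATA site at 47 bases and 1 E-box at 111 bases. The Ankrd23 window held 1 M-CAT core, at 120 bases, and 2 E-boxes. The Ankrd2 window held no M-CAT core and no GATA site under these letters, but 3 E-boxes and a TATAAA at 29 bases. No match overlapped another. Among the 32851 RefSeq windows of the same length, 12.6% held CATTCC, 9.99% AGATAA, 66.2% CANNTG and 12.4% TATAAA, so an E-box is the commonest of these matches in any promoter. The CArG box of serum response factor, present in 1.47% of windows, and the MEF2 site, present in 0.508%, matched in none of the 3 windows. A second RefSeq start of Ankrd23, with the window chr1:36536557-36536806, held 1 GATA site and no M-CAT core. A match describes letters in the sequence and does not show that a factor binds there.

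The libraries held 18177642 to 23853394 reads, and mitochondrially encoded genes took 34.7% to 47.3% of them. Before sequencing, a duplex-specific nuclease had digested re-annealed abundant DNA, per the labels' protocols, so a difference in an abundant transcript may be compressed. Ezh2 itself had 73 and 70 reads in the mutant hearts against 77 and 67 in wild-type hearts, and with the deleted part of the gene not stated this row does not check the labels. For Ddx3y, a gene on the Y chromosome named after its values were seen, mutant hearts had 754 and 659 reads against 2 in each wild-type heart. Sex and genotype therefore cannot be told apart in any difference below. The heart muscle genes Myh6, Tnnt2, Tnni3, Myl2, Actc1, Ryr2, Pln and Mybpc3 summed to between 41509 and 54406 CPM per library, as the labelled tissue would hold. CPM (counts scaled to a common library size) here include the TMM factor, a correction for differences in library composition.

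Ankrd1 was several-fold higher in the mutant ventricles. It was read at 2433 CPM in mutant 1, 2690.5 in mutant 3, 315 in wild type 1 and 308 in wild type 2. Each mutant library stood far above each wild-type library, and the libraries of 1 genotype were close to each other. The row (chromosome 19, 36186455 to 36194334, minus strand, mm9) gathered 52135 and 53057 reads in the mutant hearts against 7073 and 6116 in wild-type hearts, so counting error is small beside the difference. The ratio of a mutant to a wild-type library ran from 7.72 to 8.74 over the 4 pairs, while the mutants differed from each other by 1.11-fold and the wild types by 1.02-fold. The fitted log2 fold change was 3.04 ± 0.27 (SE, n = 2 against 2).

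Ankrd23 was also higher in both mutants, by less and with a wide gap between the wild types. It was read at 329 CPM in mutant 1, 315 in mutant 3, 211 in wild type 1 and 109 in wild type 2. The mutants almost coincided, wild type 1 lay midway between them and wild type 2, and the groups did not overlap. The mean was 322 ± 9.24 CPM (SD, n = 2) in the mutant hearts against 159.8 ± 72.1 in wild-type hearts. The wild types differed from each other by 1.94-fold, more than mutant 3 differed from wild type 1 (1.50-fold). The fitted log2 fold change was 1.01 ± 0.32 (SE), 1.57 without wild type 1 and 0.61 without wild type 2, so the size of the difference rests on which wild-type heart it is set against. The row (chromosome 1, 36587379 to 36596203, minus strand, mm9) held 7040 and 6221 reads in the mutants, 4733 in wild type 1 and 2163 in wild type 2.

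Ankrd2 was close to the limit of detection in every ventricle. Its row (chromosome 19, 42110528 to 42119600, plus strand, mm9) held 9 reads in mutant 1, 7 in mutant 3, 3 in wild type 1 and 2 in wild type 2. Too few reads were present for it to pass the filter on low counts, which the other members passed. In CPM of the total reads this was 0.415 in mutant 1 (95% Clopper-Pearson interval 0.190 to 0.787) and 0.293 in mutant 3 (0.118 to 0.605). It was 0.149 in wild type 1 (0.0308 to 0.436) and 0.110 in wild type 2 (0.0133 to 0.397). The intervals of all 4 libraries overlapped. They cover counting error only and not the spread between hearts. In sum, the mutants held 16 reads and the wild types 5.

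For Ankrd1, Ankrd2 and Ankrd23 alike, both mutants lay above both wild types, as they did in 22.3% of the 16128 rows tested across the genome; they lay below both in 22.4%. That share is large because only 2 libraries make up each group. Nothing is read from it, since the members were chosen on this contrast. In bulk tissue, more cells of a type and more RNA per cell cannot be told apart.

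**Figure D1:**
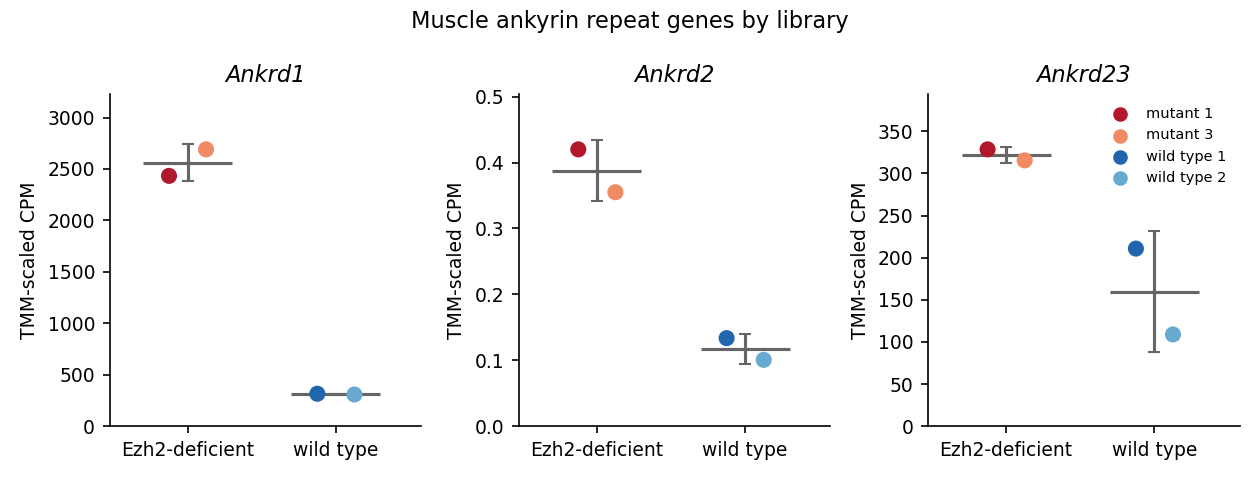
TMM-scaled CPM of Ankrd1, Ankrd2 and Ankrd23 (vertical axes, linear, a different scale in each panel) in the Ezh2-deficient and wild-type libraries. Points are libraries, horizontal lines group means and bars 1 SD (n = 2). Ankrd1 stood at 2433 and 2690.5 CPM in the mutants against 315 and 308 in the wild types, while Ankrd23 spread from 109 to 211 CPM between the wild types.

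Ratios in the authors' deposited table are on CPM without the TMM factor. In the authors' deposited table Ankrd1 was 6.32 to 7.14 times as high in a mutant as in a wild type, and 1.05 times as high in wild type 1 as in wild type 2. For Ankrd23 the authors' deposited table gives ratios of 1.38 and 1.11 against wild type 1 and 2.73 and 2.19 against wild type 2, for mutant 1 and mutant 3. Wild type 1 over wild type 2 is 1.98 for Ankrd23 in the authors' deposited table. The authors' deposited table leaves the ratios of Ankrd2 blank. With scaling by total counts the middle log2 fold change over all tested rows was -0.28 and not 0.00, and with it Ankrd1 had a log2 fold change of 2.75 and Ankrd23 one of 0.72.

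Ratios taken inside a library do not depend on scaling, and they show that the balance between Ankrd1 and Ankrd23 differed between the groups. Per kilobase of the longest protein-coding GENCODE transcript (2020 bases for Ankrd1 and 2277 for Ankrd23), Ankrd1 had 8.35 times the reads of Ankrd23 in mutant 1, 9.61 times in mutant 3, 1.68 times in wild type 1 and 3.19 times in wild type 2. The ratio was higher in each mutant than in each wild type, and the wild types differed from each other by more than the mutants did. The mean ratio of the mutants was 3.69 times that of the wild types. Of the reads per kilobase of the family, Ankrd1 made up 89.3% and 90.6% in mutant hearts against 62.7% and 76.1% in wild-type hearts, and Ankrd2 made up at most 0.0472% in any library. With the shortest protein-coding transcripts (1818 and 1073 bases) the ratio in wild type 1 was 0.882, so the order of Ankrd1 and Ankrd23 in that heart depends on the transcript assumed. In the other libraries Ankrd1 was above Ankrd23 and both were far above Ankrd2 under either length. The nuclease step lowers abundant transcripts, so these are balances of reads and not of RNA.

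Set against heart muscle transcripts, Ankrd1 and Ankrd23 were higher in both mutants. These ratios reuse the reads on which the members were chosen, so they add no separate support. Ankrd1 had 51.1 and 49.5 reads per 1000 reads of the 8 heart muscle genes in the mutant hearts against 6.91 and 7.41 in wild-type hearts. Ankrd23 had 6.90 and 5.80 such reads in the mutant hearts against 4.63 and 2.62 in wild-type hearts. On this scale the mutant mean was 7.02 times the wild-type mean for Ankrd1 and 1.75 times for Ankrd23. Against titin, the giant filament that the family binds, Ankrd1 had 578 and 703 reads per 1000 titin reads in the mutant hearts against 96.5 and 72.4 in wild-type hearts. Ankrd23 had 78.0 and 82.4 reads per 1000 titin reads in the mutant hearts against 64.6 and 25.6 in wild-type hearts.

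**Figure D2:**
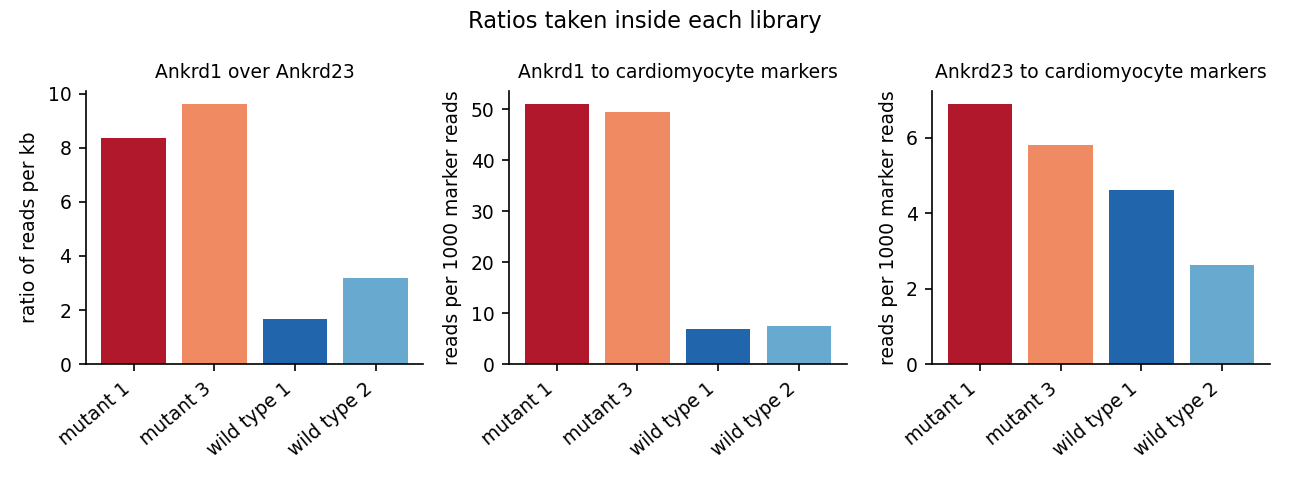
Bars give, for each of the 4 libraries, the ratio of Ankrd1 to Ankrd23 reads per kilobase of transcript (left), and the reads of Ankrd1 (middle) and Ankrd23 (right) per 1000 reads of 8 heart muscle genes. Axes are linear and start at 0. The left ratio was 8.35 and 9.61 in the mutant hearts against 1.68 and 3.19 in wild-type hearts.

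Of the genes beside the members on the chromosome, none was called. Rpp30, which encodes a subunit of ribonuclease P and lies 7191 bases from Ankrd1, was at 13.3 and 14.1 CPM in the mutants, with 9.48 and 12.5 in the wild-type hearts (log2 fold change 0.32 ± 0.25 SE, adjusted p = 0.674 in edgeR's quasi-likelihood test). On the other side, Pcgf5, a Polycomb ring finger gene 228609 bases away, had 0.19 ± 0.25 (adjusted p = 0.824). Ankrd39, another ankyrin repeat gene, overlaps the Ankrd23 row by 1186 bases on the same strand. It had 89 and 59 reads in the mutant hearts against 62 and 86 in wild-type hearts (0.02 ± 0.36, adjusted p = 0.993), against at least 2163 reads for Ankrd23, and reads in the overlap could have been counted to either row.

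Farther out, Cnnm3, a cation transport mediator gene 2296 bases from Ankrd23, had a log2 fold change of -0.55 ± 0.25 (adjusted p = 0.482). Sema4c, which encodes a membrane semaphorin, had 0.11 ± 0.24 (adjusted p = 0.900). Ubtd1, a ubiquitin domain gene 1396 bases before Ankrd2, had -0.43 ± 0.27 (adjusted p = 0.599), with 320 reads in wild type 1 and 167 to 201 in the other libraries. The 7 neighbours tested include the clone-named row 0610010D20Rik beside Ankrd2, at 4 to 12 reads, and 0 of them were called by edgeR, DESeq2 or limma-voom, or at an unadjusted p under 0.05 by edgeR. Over all tested rows edgeR called 0.13%, DESeq2 1.09% and limma-voom 0.0868%, and 10.9% had an unadjusted p under 0.05 by edgeR. Leaving out 1 library moved Ubtd1 between -0.67 and -0.14.

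**Figure D3:**
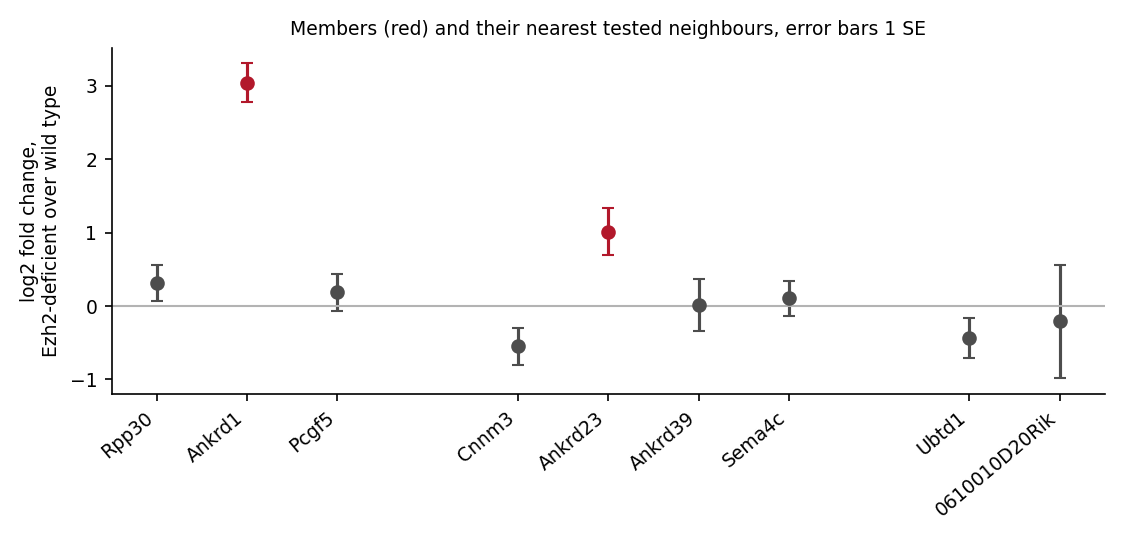
Fitted log2 fold change of Ezh2-deficient over wild type (vertical axis, bars 1 SE) for Ankrd1 and Ankrd23 (red) and for the nearest tested rows on each side (grey), in chromosome order within each of the 3 loci. Ankrd1 at 3.04 stood beside Rpp30 at 0.32 and Pcgf5 at 0.19. Ankrd2 was not tested and is not drawn.

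The known binding partners of the family were not called. Of 15 partners tested, 0 passed an adjusted p of 0.05 by edgeR, by DESeq2 or by limma-voom; at an unadjusted p under 0.05 edgeR had 1 higher and 0 lower. Across all tested rows edgeR called 0.13%, DESeq2 1.09% and limma-voom 0.0868%. The edgeR calls were 17 rows higher (0.105%) and 4 lower (0.0248%) in the mutants, or 76 higher and 80 lower with scaling by total counts. At an unadjusted p under 0.05, 6.49% of rows were higher and 4.38% lower. The list's median log2 fold change was 0.00, as was that of all rows (-0.28 for both with total counts), and 8 of the 15 lay above 0. Tcap, which encodes the Z-disc protein telethonin that binds Ankrd2, had 27360 and 23410 reads in the mutant hearts against 18100 and 16336 in wild-type hearts (0.60 ± 0.24, adjusted p = 0.420). Akt2, a kinase that phosphorylates Ankrd2, was at 48.1 and 46.0 CPM in the mutant hearts against 77.9 and 56.1 in wild-type hearts (-0.51 ± 0.23, adjusted p = 0.482). Named after their values were seen, Ttn, the gene of titin, was at 4212 and 3827 CPM in the mutants and at 3262 and 4248 in wild type 1 and wild type 2. Mypn, the gene of myopalladin, which tethers Ankrd1 to the sarcomere, was at 72.8 and 80.6 CPM against 107 and 80.5. The groups overlapped for both genes. Without wild type 1 the list held 1 call and without wild type 2 it held 4, where 10.8% and 21.6% of all tested rows were called.

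The Z-disc and titin stretch sensors lay mostly above 0, with no call by edgeR. Of 18 tested, 16 had a log2 fold change above 0, against 50.5% of all tested rows, and the median was 0.31. With scaling by total counts the list's median was 0.03 and that of all tested rows -0.28, against 0.00 for all rows with TMM. The list median thus lay above that of all rows under both scalings, while its height above 0 depends on the scaling. By edgeR 0 passed, beside 0.13% of all tested rows. At an unadjusted p under 0.05, 5 were higher and 0 lower, beside 6.49% and 4.38% of all tested rows. DESeq2 called 2 (Fhl1 and Cryab), beside 1.09% of all its tested rows, and limma-voom 0, beside 0.0868%. Fhl1, an X-linked LIM protein gene that takes part in stretch signalling at titin, was at 147 CPM in both mutants and at 73.3 and 69.0 in the wild types (1.05 ± 0.20, adjusted p = 0.138). Cryab, which encodes the small heat shock protein alpha B-crystallin, had 33090 and 35216 reads in the mutant hearts against 20489 and 12959 in wild-type hearts (1.09 ± 0.28, adjusted p = 0.235). Xirp2, an actin-binding gene of the intercalated disc named after its values were seen, was at 644 and 612 CPM in the mutant hearts against 73.5 and 264 in wild-type hearts. It had the largest log2 fold change of the list (1.90 ± 0.52, adjusted p = 0.266 by edgeR). The members below 0 were Xirp1 (-0.14) and Vcl (-0.44). Both mutants exceeded both wild types in 11 of the 18, beside 22.3% of all tested rows. Ankrd1 and Ankrd23 were not part of the list, and 1 of its members was called without mutant 1 and 1 without mutant 3, where 0.415% and 0.67% of all tested rows were called. Without wild type 1 and without wild type 2, 6 members each were called, beside 10.8% and 21.6% of all rows.

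TEAD factors and their coactivator YAP drive Ankrd1 in many cell types, and Ankrd1 is a common reporter of that pathway. The other genes of a YAP and TEAD target signature, from which Ankrd1 was left out, lay on both sides of 0. Of 21 listed, 20 were tested and 0 passed by edgeR, which called 0.13% of all tested rows. DESeq2 called 1 (Ctgf), beside 1.09% of all its tested rows, and limma-voom 0, beside 0.0868%. At an unadjusted p under 0.05 edgeR had 2 higher and 1 lower, beside 6.49% and 4.38% of all tested rows. The median log2 fold change was -0.06 (-0.35 with total counts), and 8 of 20 lay above 0, against 50.5% of all tested rows. Ctgf, which encodes connective tissue growth factor, was at 159 and 96.9 CPM in the mutant hearts against 71.8 and 44.7 in wild-type hearts (1.13 ± 0.32, adjusted p = 0.282). Tgfb2, a transforming growth factor gene, was at 20.9 and 18.4 CPM in the mutants against 10.6 and 10.9 in the wild types (0.86 ± 0.22, adjusted p = 0.235). Cyr61, a close relative of Ctgf and named after its values were seen, was at 42.3 and 51.9 against 43.2 and 34.9 CPM, with the groups overlapping. The list median was -0.03 without mutant 3, -0.01 without wild type 1 and -0.09 without wild type 2.

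Among the Hippo pathway genes that control YAP or act with it, 16 were listed and 0 of the 15 tested passed by edgeR. Of all tested rows, edgeR called 0.13%. At an unadjusted p under 0.05 it had 1 higher and 1 lower, beside 6.49% and 4.38% of all tested rows. DESeq2 called 1 (Vgll2), beside 1.09% of all its tested rows, and limma-voom 0, beside 0.0868%. The median was -0.27 (-0.55 with total counts), and 6 of the 15 lay above 0, against 50.5% of all tested rows. Vgll2, a TEAD cofactor of skeletal muscle, had 27 and 29 reads in the mutant hearts against 2 and 0 in wild-type hearts, which is 28.8-fold with a counting interval (95%) from 7.61 to 244 (adjusted p = 0.138). With so few wild-type reads its fitted log2 fold change of 4.70 became 3.85 without wild type 2 and 7.80 without wild type 1, the latter set against 0 reads, so that it depends on the prior count and is no bound. Vgll4, a TEAD cofactor that opposes YAP, was at 12.1 and 10.6 CPM in the mutant hearts against 22.0 and 23.4 in wild-type hearts (-1.0 ± 0.22, adjusted p = 0.175). The groups did not overlap for either cofactor. Both mutants lay above both wild types for Vgll2, as in 22.3% of all tested rows. They lay below both for Vgll4, as in 22.4%. Named after their values were seen, Yap1 was at 80.7 and 69.3 CPM in the mutants against 59.3 and 59.6 in the wild types, and Tead1, a TEAD factor, at 22.9 and 11.6 against 27.8 and 27.0 CPM. The list median was -0.16 without mutant 1, -0.22 without mutant 3, -0.26 without wild type 1 and -0.16 without wild type 2.

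Factors known to act on the promoters of the family were mostly below 0. Of 19 listed, 17 were tested, 14 had a log2 fold change below 0 and the median was -0.20 (-0.49 with total counts). Over all tested rows 50.5% lay above 0 and the median was 0.00 (-0.28 with total counts). None passed by edgeR, DESeq2 or limma-voom, and at an unadjusted p under 0.05 edgeR had 0 higher and 2 lower. The latter were Myocd, the coactivator of serum response factor (-0.59 ± 0.21, adjusted p = 0.366), and Smad4, the shared signal carrier of the TGF-beta pathway (-0.52 ± 0.22, adjusted p = 0.446). Myocd was at 27.4 and 28.2 CPM in the mutant hearts against 39.7 and 44.2 in wild-type hearts. Gata4, a cardiac factor that binds the Ankrd1 promoter, was at 72.5 and 81.4 against 111.5 and 75.3 CPM, and Nkx2-5, a cardiac homeobox factor, at 53.0 and 47.8 against 47.7 and 37.0 CPM, both named after their values were seen. The myogenic factors Myod1 and Myog, which act on Ankrd2 in skeletal muscle and are also named after their values were seen, had between 0 and 4 reads per library and were not tested. The list median was -0.12 without wild type 1 and -0.31 without wild type 2.

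Other genes with an Ankrd symbol, which share the repeat but not the muscle role, were spread around 0. Of 45 such rows 34 were tested, 14 with a log2 fold change above 0, against 50.5% of all tested rows. The median was -0.08 (-0.37 with total counts). None passed by edgeR, DESeq2 or limma-voom, beside 0.13%, 1.09% and 0.0868% of all the rows they tested. At an unadjusted p under 0.05 edgeR had 2 higher and 2 lower, beside 6.49% and 4.38% of all tested rows. Ankrd37, a gene known as hypoxia-responsive, had 91 and 117 reads in the mutant hearts against 35 and 38 in wild-type hearts (1.55 ± 0.34, adjusted p = 0.175). Ankrd45 had 91 and 42 reads in the mutant hearts against 19 and 14 in wild-type hearts (2.03 ± 0.48, adjusted p = 0.211). In the mutants both genes were above the wild types, an order seen in 22.3% of all tested rows. Mutant 1 and mutant 3 lay apart for Ankrd45. The list median was -0.16 without wild type 1 and -0.01 without wild type 2.

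**Figure D4:**
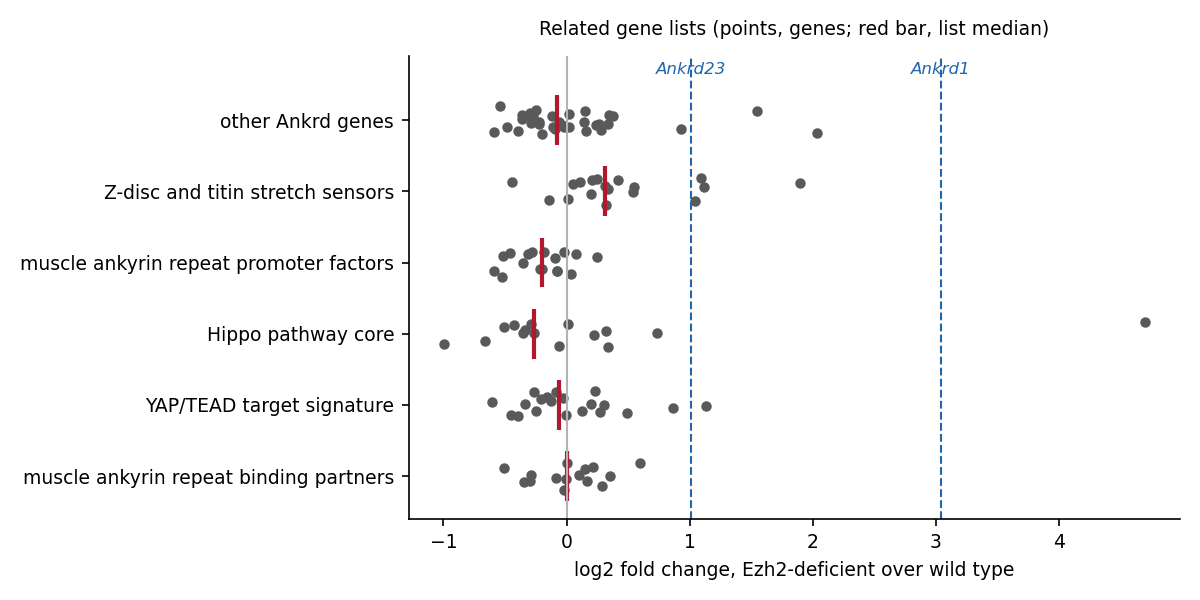
Fitted log2 fold change of Ezh2-deficient over wild type (horizontal axis) for each tested gene (points, spread vertically for visibility) of 6 gene lists, with the list median (red bar). Dashed lines mark Ankrd23 at 1.01 and Ankrd1 at 3.04. One gene, Vgll2 with 2 reads in the wild types, lies beyond Ankrd1.

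Marker genes of other tissues were not level across the libraries, and their part in the members' differences was not tested. The 9 fast skeletal muscle markers summed to 320 CPM in mutant 1, 50.0 in mutant 3, 29.7 in wild type 1 and 32.2 in wild type 2. Mutant 1 thus stood apart from the other libraries. Both mutants exceeded both wild types in 2 of the 9 genes, beside 22.3% of all tested rows. Without mutant 1 the log2 fold change was 3.15 for Ankrd1 and 1.03 for Ankrd23. The 3 slow skeletal muscle markers summed to 145, 116, 36.8 and 78.0 CPM in the same order, with both mutants higher in 2 of the 3 genes. Both sums were lower in the wild types, and whether they relate to the reads of Ankrd2, the skeletal muscle member, was not tested. Myh4, a fast marker named after its values were seen, made up 33.2 of the 50.0 CPM in mutant 3. In the wild types Myh4 was at 9.97 and 12.0 CPM. Myh7b, a slow marker also named after its values were seen, was at 56.9 and 69.4 CPM in the mutants against 23.4 and 66.4. Its groups overlapped. Tnni1, the slow troponin I gene, named after its values were seen, had 70 and 45 reads in the mutant hearts against 1 and 4 in wild-type hearts.

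The 5 atrial markers summed to 142 CPM in mutant 1, 113 in mutant 3, 55.4 in wild type 1 and 5.74 in wild type 2. Of these, Bmp10, an atrial growth factor gene named after its values were seen, had 1 read in mutant 1 and 0 in the other libraries. The remaining 4 were higher in both mutants, an order seen in 22.3% of all tested rows. Markers of fibroblasts (617 to 797 CPM), endothelium (424 to 553 CPM), smooth muscle (104 to 167 CPM) and macrophages (41.0 to 58.5 CPM) varied less between libraries, and the heart muscle sum was 47644 and 54406 CPM in the mutant hearts against 45564 and 41509 in wild-type hearts.

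**Figure D5:**
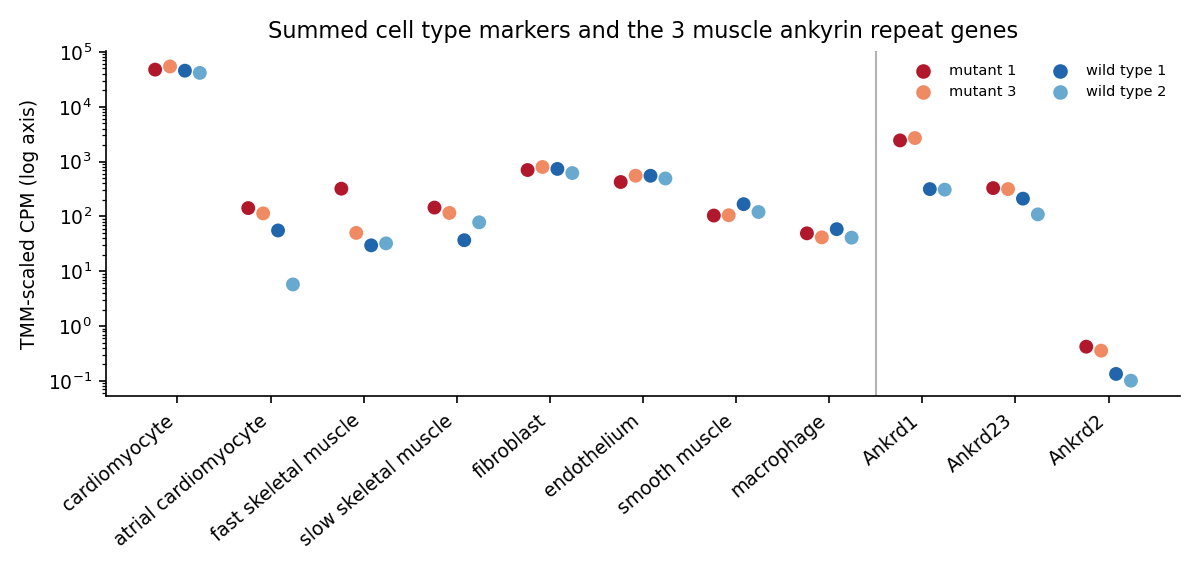
TMM-scaled CPM (vertical axis, log scale) in each of the 4 libraries, for the summed markers of 8 cell types (left) and for Ankrd1, Ankrd23 and Ankrd2 (right). The fast skeletal muscle sum was 320 CPM in mutant 1 and at most 50.0 in the other libraries, and the atrial sum was 5.74 CPM in wild type 2.

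The genes whose profile over the 4 libraries came closest to each member were found by the distance between log2 CPM values centred on each gene's mean, over 10730 autosomal candidate rows for Ankrd1 and Ankrd23 and 10731 for Ankrd2. They describe likeness over 4 libraries, with no test. For Ankrd1 the closest were Nlrc3, Myot, Dio2, Nrn1 and Slc24a2, at distances of 0.40 to 0.66 on the log2 scale. Of these, Myot encodes the Z-disc protein myotilin, and Slc24a2, a sodium, calcium and potassium exchanger gene, was at 7.09 and 7.35 CPM in the mutant hearts against 0.980 and 1.51 in wild-type hearts. For Ankrd23 they were H2-Q6, Hist1h2bp, Polr2e, H2-Aa and Abhd9, at 0.04 to 0.13. Polr2e, a subunit gene of RNA polymerase II, was at 93.3 and 91.4 CPM in the mutants, 54.8 in wild type 1 and 30.5 in wild type 2, and H2-Aa, a class II histocompatibility gene of antigen-presenting cells, at 35.1, 30.8, 19.9 and 10.9 CPM. Both had mutants close together and wild type 1 between them and wild type 2, as Ankrd23 did. H2-Q6 and Hist1h2bp belong to families of near-identical genes, so their counts are uncertain. For Ankrd2, whose profile rests on 2 to 9 reads, the list of Pla2g4a, Abra, Prg4, Mgp and Apod is imprecise.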

How the data were processed

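Polyadenylated right ventricle RNA of 4 adult mice, depleted of abundant sequences with duplex-specific nuclease per the labels' protocols, was grouped by sample title. Build mm9, TopHat 1.2.0 and Cufflinks are named in the submitters' processing notes, while for the counting rule, strand and annotation the sources used here give none. A single deposited table holds the authors' raw read counts per gene row, used here, and the authors' CPM, which equal a row's share of the column total on the usual CPM scale. It also holds the authors' ratio (fold) of each pair of libraries, quoted for members, and the authors' p-values, which were not used. Starts are printed counted from 1.

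The members and gene lists were chosen with earlier results of these data known. Counts were tested with edgeR 4.0.16 in R 4.3.3 (filterByExpr, 16128 rows kept, TMM, quasi-likelihood test, two-sided) with Benjamini-Hochberg adjustment over all rows; a call is an adjusted p under 0.05. The SE was taken from the F statistic. The labels do not say that the libraries of a group came from separate litters. The p-values weigh a difference against the spread between these hearts, estimated with information shared across rows. The test was run on simulated counts that had the same spread for every gene. That run does not show how the test behaves at the spread between these hearts.

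Named genes are the members, up to 6 called genes per list or otherwise the 2 of smallest p, Ezh2, nearest tested neighbours and the 5 closest profiles per member (mean of at least 1 CPM, no library at 0, clone-type names left out); others are marked in the text. Listed symbols were matched by older names where needed. Transcript lengths came from GENCODE M21 and promoters from RefSeq, both on GRCm38, where 3 of 3 members matched. Alternatives were DESeq2 1.42.0, limma-voom 3.58.1, other scalings and filters, and leaving out rows or each library in turn.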

Additional observations from a re-analysis of the deposited data

How the results depend on the processing

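Ankrd1, Ankrd2 and Ankrd23 were higher in the mutants under every alternative that gave them a value; limma-voom gave none for Ankrd2, which the filter removes, and elsewhere Ankrd2 is a ratio of group means unless fitted without the filter or by DESeq2. Scaling by total counts gave 2.75 for Ankrd1 and 1.45 for Ankrd2 (main values 3.04 and 1.73, log2). Leaving out each library gave 3.00 to 3.15 for Ankrd1, 1.54 to 1.95 for Ankrd2 and 0.61 to 1.57 for Ankrd23. The rows tested were held fixed there, and where 1 library remained in a group, its spread was taken from the other group.

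The count of calls over all rows moved more: 21 (17 higher, 4 lower) by the main test, 156 (76 higher, 80 lower) with scaling by total counts, 203 by DESeq2, 317 without a filter, 8 without rows on X and Y, and 67 to 3488 without 1 library. Of the lists, the partners held 0 to 4 calls without 1 library, the YAP and TEAD targets 0 to 3 (1 by DESeq2, 1 without a filter) and the Hippo genes 0 to 4 (2 with total counts, 1 by DESeq2, 2 without a filter). The promoter factors held 0 to 7, the stretch sensors 1 to 6 (1 with total counts, 2 by DESeq2, 3 without a filter) and the other Ankrd genes 0 to 5 (2 without a filter). The list counts without 1 library come from the same fits as the 67 to 3488 calls over all rows. Each of these fits leaves 1 library in a group, so nothing is read from its list counts. The cause of the moves was not tested.

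Of the values of single named genes under the alternatives, 291 kept direction and side of the threshold, 77 gained a call, 5 lost one and 11 changed sign. With total counts Ezh2 had -0.26, Pcgf5 -0.10, Sema4c -0.19 and Ankrd39 -0.25, and Ankrd39 had -0.025 without mitochondrial and abundant rows. Without 1 library, Ankrd39 ranged from -0.27 to 0.37, Pcgf5 from -0.049 to 0.47, Sema4c from -0.016 to 0.27 and 0610010D20Rik from -1.07 to 0.37. No paired analysis was possible because the groups share only 1 replicate number. With 2 libraries per group, few degrees of freedom limit every test, and depth limits Ankrd2.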
